A study of Mus musculus with 4 samples.

Results

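The genes of the heterotrimeric G protein subunits were examined in RNA sequencing libraries of the parasubthalamic nucleus (PSTh), a small cell group beside the subthalamic nucleus at the posterior edge of the lateral hypothalamus. The members were 16 alpha, 5 beta and 12 gamma subunit genes, 33 of the 25044 entries in the tables. They were chosen by name and not by a cut on their values, though earlier results of these data were known. All 33 had an entry under their Ensembl identifier. The 4 libraries, replicates 1 to 4, come from brain tissue of naive C57BL/6 mice, an inbred strain. They form 1 group, with no stressed animals, no treatment and no genotype contrast, and the labels give no age. Beyond their numbering, nothing in the labels says whether the replicates came from different animals, and the p-values below cover only the spread among these 4 libraries, which may be technical.

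A heterotrimeric G protein passes a signal from a receptor in the membrane to enzymes and channels in the cell. The alpha subunit binds GTP and defines the class: Gs stimulates adenylyl cyclase, Gi/o inhibits it, Gq activates phospholipase C beta, and Gna12 and Gna13 form a further class. The beta and gamma subunits form a lasting pair that opens GIRK potassium channels and restrains calcium channels in neurons. PAC1R, the receptor of the peptide PACAP named in the title of the series, is known to couple to Gs and Gq.

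The end of the alpha chain contacts the receptor, and in most Gi/o members it carries the cysteine that pertussis toxin modifies. The last 33 coding bases, stop codon included, are shown for the 8 alpha genes that the class comparisons turn on, 5′ to 3′, from the principal GENCODE M21 transcripts on GRCm38. Capitals mark the fourth codon before the stop, which lies in 1 exon with the rest in each gene.
Gnas at chr2:174346356-174346388, plus strand: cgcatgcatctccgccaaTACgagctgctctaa
Gnao1 at chr8:93967023-93967055, plus strand: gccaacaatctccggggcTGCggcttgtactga
Gnai2 at chr9:107615635-107615667, minus strand: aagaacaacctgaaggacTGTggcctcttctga
Gnai1 at chr5:18267019-18267051, minus strand: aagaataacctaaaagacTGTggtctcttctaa
Gnaz at chr10:75015180-75015212, plus strand: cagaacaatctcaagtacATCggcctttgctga
Gnaq at chr19:16383362-16383394, plus strand: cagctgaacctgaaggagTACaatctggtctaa
Gna11 at chr10:81530795-81530827, minus strand: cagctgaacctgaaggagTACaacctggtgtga
Gna12 at chr5:140760549-140760581, minus strand: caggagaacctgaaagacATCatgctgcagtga
The marked codon is TGT or TGC, the cysteine codons, in Gnao1, Gnai1 and Gnai2, and neither in Gnaz, whose product is known to resist the toxin.

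The tables give 1 value per gene, taken here from how the values behave as FPKM, a level corrected for transcript length and sequencing depth, because their unit is not stated. Library totals lay between 428612 and 442836 FPKM, and 19.1% to 22.2% of them came from the mitochondrial genome. The counts of fragments behind a value are not given, so no counting intervals were computed. Of 8 PSTh markers, 8 lay at a mean of 1 FPKM or more, from Barhl1 at 1.98 FPKM and Lmx1a at 2.93 FPKM to Slc17a6 at 80.0 FPKM and Calb2 at 178 FPKM. In the test against the median gene described below, 5 of them were above and 2, Barhl1 and Lmx1a, below, while Foxa1 did not pass. Of all genes tested, 46.7% were above and 46.4% below. Tissue markers set each library apart. Replicate 3 was highest for 5 of 5 thalamus markers, whose summed level was 266 FPKM there and 19.2 to 51.5 FPKM elsewhere. Replicate 2 was highest for 5 of 5 midbrain dopamine and 5 of 5 medial hypothalamus markers, and replicate 1 for 5 of 5 markers of spinal cord and hindbrain, at a summed 18.4 FPKM. Replicate 4 had the highest summed choroid plexus markers, at 55.0 FPKM against 4.80 to 6.76 FPKM, nearly all of it Ttr at 49.7 FPKM, and the highest summed lateral hypothalamus markers, at 760 FPKM.

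Most subunit genes stood well above the typical gene. Each gene's log2(FPKM + 0.1) was set against the median gene of its library and tested by limma over the 17630 genes averaging at least 0.1 FPKM. Of the 33 members, 29 entered the test: 23 were above the median gene, 5 were below and 1 did not pass. Among all genes tested, 46.7% were called above and 46.4% below. The members tested had a median log2 difference of 2.27 from the median gene, against -0.01 over all genes tested. The 5 below were Gna14, Gna15, Gnb3, Gng8 and Gngt2, and Gnb4 did not pass at 0.05 (SE 0.09, adjusted p = 0.637). The 4 that did not enter were Gnat1, Gnat2, Gnat3 and Gngt1. With no filter on low values Gng8 moved to the other side of the median gene at 1.25, and with a filter at a mean of 1 FPKM Gnb4 lay below it at -0.84.

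The Gs class consists of Gnas, which encodes the alpha subunit found in nearly all cells, and Gnal, which encodes Golf, the form of olfactory and striatal neurons. Gnal lay at 30.4, 32.9, 42.0 and 33.2 FPKM in replicates 1 to 4. Gnas lay at 928, 1023, 929 and 991 FPKM, a mean of 967 ± 47.1 (SD, n = 4), and was the most abundant alpha gene in each library. Gnal was highest in replicate 3 and far below Gnas in all 4 libraries, with no overlap. It was 28.1-fold lower, at a log2 difference of -4.81 (SE 0.11, limma adjusted p = 3.08e-07), in a fit where 99.8% of all genes were lower than Gnas and 0.119% higher. Gnal made up 3.46% ± 0.578 of the Gs class (SD, n = 4). Markers of the striatum, where Gnal replaces Gnas in most neurons, were low beside it: Drd1 lay at 1.10 FPKM and Adora2a at 0.840 FPKM, though Ppp1r1b lay at 18.3 FPKM. Drd2, also a gene of midbrain dopamine neurons, lay at 17.4, 27.7, 16.5 and 16.6 FPKM in replicates 1 to 4, while Ppp1r1b was highest in replicate 3, as Gnal was. The part of these markers in the Gnal level was not tested.

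Gnas (ENSMUSG00000027523, GRCm38 chromosome 2, 174284320 to 174346744, plus strand) is an imprinted locus with several promoters, which also give the transcripts of NESP55 and of the extra-large form XLas. A gene-level value does not separate these products. The antisense gene Gm20721 shares 1469 exon bases with it and lay at 0.0869 to 0.306 FPKM. The most downstream promoter window, which precedes the first exon of the Gs alpha transcript, is shown because Gnas led the family. It spans 250 bases before to 50 bases after a RefSeq start (GRCm38.p6, plus strand), and capitals mark GC boxes, GGGCGG or its reverse complement CCGCCC.
Gnas at chr2:174329756-174330055: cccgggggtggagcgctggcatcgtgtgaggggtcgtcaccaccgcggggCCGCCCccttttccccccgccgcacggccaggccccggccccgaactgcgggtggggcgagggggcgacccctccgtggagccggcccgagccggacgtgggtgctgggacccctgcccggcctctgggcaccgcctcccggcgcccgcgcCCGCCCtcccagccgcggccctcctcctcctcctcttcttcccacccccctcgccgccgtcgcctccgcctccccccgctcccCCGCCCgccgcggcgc
The window holds 3 GC boxes and 40 CG dinucleotides.

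**Figure D1:**
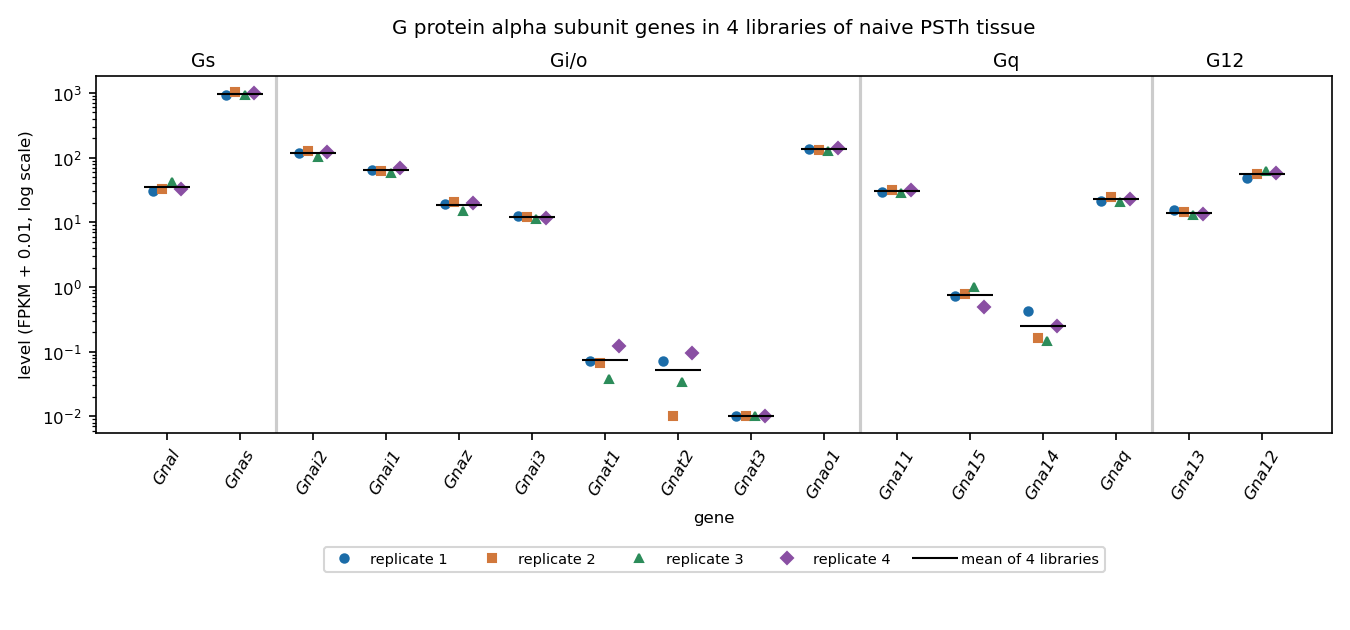
Levels of the 16 alpha subunit genes by class, as FPKM + 0.01 on a log axis; each point is 1 library and the bar is the mean of 4 libraries. Gnas stands near 967 FPKM, and Gnat3 is listed at 0 in all 4 libraries.

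In the Gi/o class, Gnao1 and Gnai2 stood close together per length, and 3 transducin and gustducin genes were at or near 0. Gnai2, whose product is widespread and common in glia and vessels as well as neurons, lay at 119, 128, 103 and 124 FPKM in replicates 1 to 4. Gnai1, a form enriched in brain, lay at 64.3, 63.2, 58.4 and 68.1 FPKM. Gnao1, which encodes Go, the predominant alpha subunit of neuronal membranes, lay at 137, 133, 128 and 140 FPKM. Within each library Gnai2 was below Gnao1, and the ranges of these genes did not overlap.

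Of the 4 other Gi/o genes tested, 4 were lower than Gnao1, where 97.2% of all genes were lower and 2.05% higher. Gnai2 was 1.14-fold lower at -0.19 (SE 0.06, limma adjusted p = 0.0380). This small difference no longer passed when replicate 1 (-0.18), 3 (-0.14) or 4 (-0.19) was left out. It also depends on the length correction and was -1.50 without it (limma adjusted p = 2.36e-06), as the longest Gnai2 transcript has 2215 bases and that of Gnao1 5526. On the same scale Gnai1 lay at -1.90, Gnaz at -3.51 and Gnai3 at -4.25. Gnai1 was 2.12-fold lower at -1.08 (SE 0.05, limma adjusted p = 9.81e-06). Gnaz, the form that resists pertussis toxin, was 7.23-fold lower at 18.7 ± 2.66 FPKM, and Gnai3, another widespread form, was 11.2-fold lower at 11.9 ± 0.570 FPKM (SD, n = 4). Gnao1 made up 38.8% ± 1.39 of the class, Gnai2 34.1% ± 1.32 and Gnai1 18.3% ± 0.441.

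The retinal transducin genes Gnat1 and Gnat2 and the taste gene Gnat3 did not enter the test. Gnat1, of rods, lay between 0.0279 and 0.112 FPKM, and Gnat2, of cones, between 0 and 0.0858 FPKM. Gnat3, which encodes gustducin, was listed at 0 in all 4 libraries. The photoreceptor factor Crx was listed at 0 throughout.

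The Gq class held Gna11 and Gnaq at similar levels and little of the other members. Gna11, a widespread form, lay at 29.9, 31.3, 28.8 and 31.7 FPKM in replicates 1 to 4. Gna15, best known from blood cells, lay at 0.713, 0.779, 0.976 and 0.488 FPKM. Gnaq, the form most studied in neurons, lay at 21.6, 24.9, 20.8 and 23.1 FPKM. Gna11 was above Gnaq in each library without overlap of their ranges, and Gna15 was far below both.

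Gna11 was 1.35-fold higher than Gnaq at 0.43 (SE 0.06, limma adjusted p = 0.00157), where 15.3% of all genes were higher and 79.0% lower. The order depends on the length correction: multiplied back by the longest annotated transcript, which is 3414 bases in Gna11 and 5644 bases in Gnaq, the difference was -0.29 (limma adjusted p = 0.00568). Gna15 was 27.6-fold lower than Gnaq at -4.79 (SE 0.18, limma adjusted p = 8.39e-06). Gna14, a form of restricted distribution, lay between 0.138 and 0.409 FPKM and was 70.8-fold lower, at -6.15 (SE 0.22, limma adjusted p = 7.85e-06). The size of both differences depends on the constant added to FPKM, and with 1 in place of 0.1 they were -3.77 for Gna15 and -4.26 for Gna14.

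Gna12 and Gna13 are both widespread. Gna13 lay at 15.4, 14.6, 13.0 and 13.5 FPKM in replicates 1 to 4. Gna12 lay at 48.2, 55.2, 61.6 and 58.2 FPKM. Gna13 was highest in replicate 1 and lowest in replicate 3, the reverse of Gna12. It was 3.93-fold lower than Gna12 at -1.97 (SE 0.13, limma adjusted p = 5.02e-05), where 91.0% of all genes were lower and 5.50% higher. Without length correction the difference was -1.13, since the longest Gna13 transcript has 6160 bases and that of Gna12 3416. Amz1, on the opposite strand, shares 456 exon bases with Gna12 and lay at 2.89 to 5.26 FPKM.

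Across classes, summed alpha transcripts came to 1473 ± 63.0 FPKM (SD, n = 4), of which Gs took 68.0% ± 0.759, Gi/o 23.6% ± 0.998, the class of Gna12 and Gna13 4.75% ± 0.374 and Gq 3.67% ± 0.0503. Gnas alone made up 65.7% of the alpha sum, by a value that does not separate Gs alpha from the NESP55 and XLas transcripts. With Gnas set aside, Gi/o took 68.6% ± 2.25 of the rest. The alpha genes of the classes that PAC1R couples to were far apart. Gnaq was 42.6-fold lower than Gnas at -5.41 (SE 0.05, limma adjusted p = 2.39e-08, lower in 4 of 4 libraries). Gna11, the Gq gene of higher FPKM, was 31.7-fold lower than Gnas at -4.99 (SE 0.05, limma adjusted p = 2.51e-08). As class sums, Gs came to 1002 FPKM and Gq to 54.0 FPKM. Gnas was 7.19-fold higher than Gnao1 at 2.85 (SE 0.06, limma adjusted p = 3.97e-07, higher in 4 of 4 libraries). These are transcript levels of bulk tissue. They do not show which cells hold a transcript or how much protein is made, and fewer cells of a type and less RNA per cell cannot be told apart.

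In descending order, Gnas, Gnao1, Gnai2 and Gnai1 led the alpha genes, followed by Gna12, Gnal, Gna11, Gnaq, Gnaz, Gna13, Gnai3, Gna15, Gna14, Gnat1, Gnat2 and Gnat3. The ranges over 4 libraries overlapped between the neighbours Gnai1 and Gna12, Gnal and Gna11, Gnaq and Gnaz, Gnaz and Gna13, Gnat1 and Gnat2, and Gnat2 and Gnat3.

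Among the beta subunits, Gnb2 and Gnb1 stood close together per length and the others lower. Gnb2, a widespread form, lay at 148, 149, 128 and 148 FPKM in replicates 1 to 4. Gnb5, the divergent form that pairs with RGS proteins of the R7 group, lay at 56.5, 53.3, 56.1 and 55.3 FPKM. Gnb1, the most common beta subunit in brain, lay at 164, 161, 163 and 162 FPKM. Gnb2 was below Gnb1 in each library, by the widest margin in replicate 3, where it alone dropped away from its other values.

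Of the 4 beta genes tested against Gnb1, 4 were lower, where 97.8% of all genes were lower and 1.61% higher. Gnb2 was 1.13-fold lower at -0.18 (SE 0.06, limma adjusted p = 0.0391) and did not pass when any 1 library was left out, at -0.19 without replicate 1, -0.20 without replicate 2, -0.13 without replicate 3 and -0.20 without replicate 4. Without length correction it was -0.94 (limma adjusted p = 2.22e-05), as the longest Gnb2 transcript has 1860 bases and that of Gnb1 3143. Gnb5 was 2.94-fold lower at -1.55 (SE 0.05, limma adjusted p = 1.58e-06). Gnb4 lay at 3.96 to 5.64 FPKM and was 31.6-fold lower at -4.98 (SE 0.11, limma adjusted p = 3.95e-07). Gnb3, the beta subunit of cones and of taste cells, lay at 0.0548 to 0.277 FPKM and was lower at -9.32 (SE 0.27, limma adjusted p = 1.30e-06), a value that was -7.13 with 1 and -10.06 with 0.01 added before taking logarithms. Gnb1 made up 44.4% ± 1.31 of the summed beta level, Gnb2 39.1% ± 1.76 and Gnb5 15.1% ± 0.643 (SD, n = 4).

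Gnb1 varied less between libraries than nearly all other genes. Its coefficient of variation was 0.689%, rank 13 from the lowest among 17630 genes, and its SD of 0.01 on the log2 scale was below that of 99% of the 200 genes nearest to it in level.

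**Figure D2:**
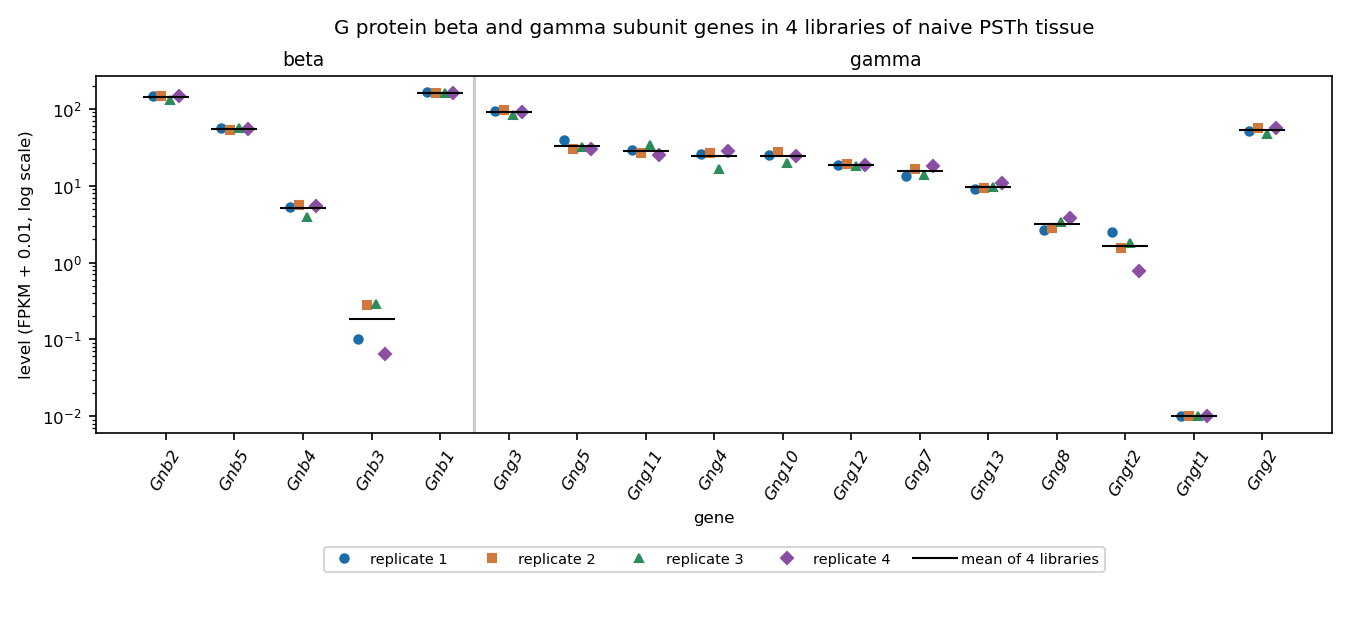
Levels of the 5 beta and 12 gamma subunit genes, as FPKM + 0.01 on a log axis; each point is 1 library and the bar is the mean of 4 libraries. The points of Gnb1 lie on each other at 161 to 164 FPKM, Gng3 leads the gamma genes, and Gngt1 is listed at 0 throughout.

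The gamma subunits, small lipid-modified proteins that anchor the pair in the membrane, spread over a wide range. Gng3, a neuronal form, lay at 93.0, 96.2, 82.3 and 91.5 FPKM in replicates 1 to 4. Gng5, a widespread form, lay at 39.0, 30.3, 31.5 and 30.0 FPKM. Gng2, another abundant brain form, lay at 52.2, 56.4, 46.9 and 56.5 FPKM. Gng3 stood above Gng2, and Gng5 below it, in every library without overlap.

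Of 10 gamma genes tested against Gng2, 1 was higher and 9 were lower, where 6.19% of all genes were higher and 90.8% lower. Gng3 was 1.71-fold higher at 0.78 (SE 0.06, limma adjusted p = 0.000131). Without length correction this difference was -0.44 (limma adjusted p = 0.00107), since the single annotated Gng3 transcript has 1643 bases and the longest of Gng2 3826. Bscl2, on the opposite strand, shares 398 exon bases with Gng3 and lay at 57.0 to 71.2 FPKM, and the use of strand in counting is not given in the sources used here. Gng5 was 1.62-fold lower at -0.70 (SE 0.11, limma adjusted p = 0.00237), and 3 processed pseudogenes match it at 98.0% to 98.5% identity over at least 204 bases, so its value is uncertain where reads could be split between the copies.

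In the middle of the range, Gng11, common in vessels, lay at 24.9 to 33.5 FPKM, Gng4, a neuronal form, at 16.6 to 28.3 FPKM and Gng10, a widespread form, at 19.8 to 27.1 FPKM. Gng12, found in glia among other cells, lay at 17.8 to 19.2 FPKM, and Gng7, the partner of Golf in the striatum, at 13.4 to 18.1 FPKM. Without length correction the 9 genes lower than Gng2 lay between -6.22 for Gngt2 and -1.36 for Gng5, with Gng11 at -2.94 in place of -0.89 and Gng10 at -2.81 in place of -1.14. On the FPKM scale neighbours in level overlapped from Gng5 through Gng11 and Gng4 to Gng10, and also Gng12 with Gng7. Endothelial markers summed to 67.0, 59.6, 61.8 and 52.8 FPKM in replicates 1 to 4, and Gng11 lay at 29.4, 26.7, 33.5 and 24.9 FPKM. Both were lowest in replicate 4, but the markers were highest in replicate 1 and Gng11 in replicate 3. Cldn5 and Cdh5 were the endothelial markers lowest in replicate 4, while Tek was highest there, and the part of these cells in the Gng11 level was not tested. Gng10 shares 946 exon bases with the readthrough gene Gm20503, listed at 0 in all 4 libraries.

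At the low end, Gng13, which pairs in taste cells with Gnat3 and Gnb3, lay at 9.01 to 10.9 FPKM, while both of those genes were near 0. It shares 399 of its 773 exon bases with Chtf18 on the opposite strand, which lay at 0.316 to 0.546 FPKM. Gng8, known from the olfactory system and the habenula, lay at 3.17 ± 0.523 FPKM beside 21.7 to 50.5 FPKM of summed medial habenula markers, most of it Tac2 and Nr4a2. The other markers, Chrna3, Pou4f1 and Chrnb4, lay at means of 1.88, 0.741 and 0.390 FPKM. Gng8 was lowest in replicate 1, where the marker sum was highest, and the part of habenula tissue in its level was not tested. Gngt2, a transducin gamma of cones, lay at 2.46, 1.55, 1.79 and 0.758 FPKM in replicates 1 to 4, 3.25-fold apart between replicates 1 and 4. Abi3, on the opposite strand, shares 234 exon bases with Gngt2, and it too was lowest in replicate 4, at 1.86 against 2.82 to 3.25 FPKM elsewhere. Gngt1, the gamma subunit of rods, was listed at 0 in all 4 libraries.

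Summed gamma levels came to 302 ± 16.8 FPKM and summed beta levels to 367 ± 10.1 FPKM (SD, n = 4). The alpha sum was 4.02 ± 0.149 times the beta sum with Gnas and 1.38 ± 0.0331 times without it, and the beta sum was 1.22 ± 0.0383 times the gamma sum.

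**Figure D3:**
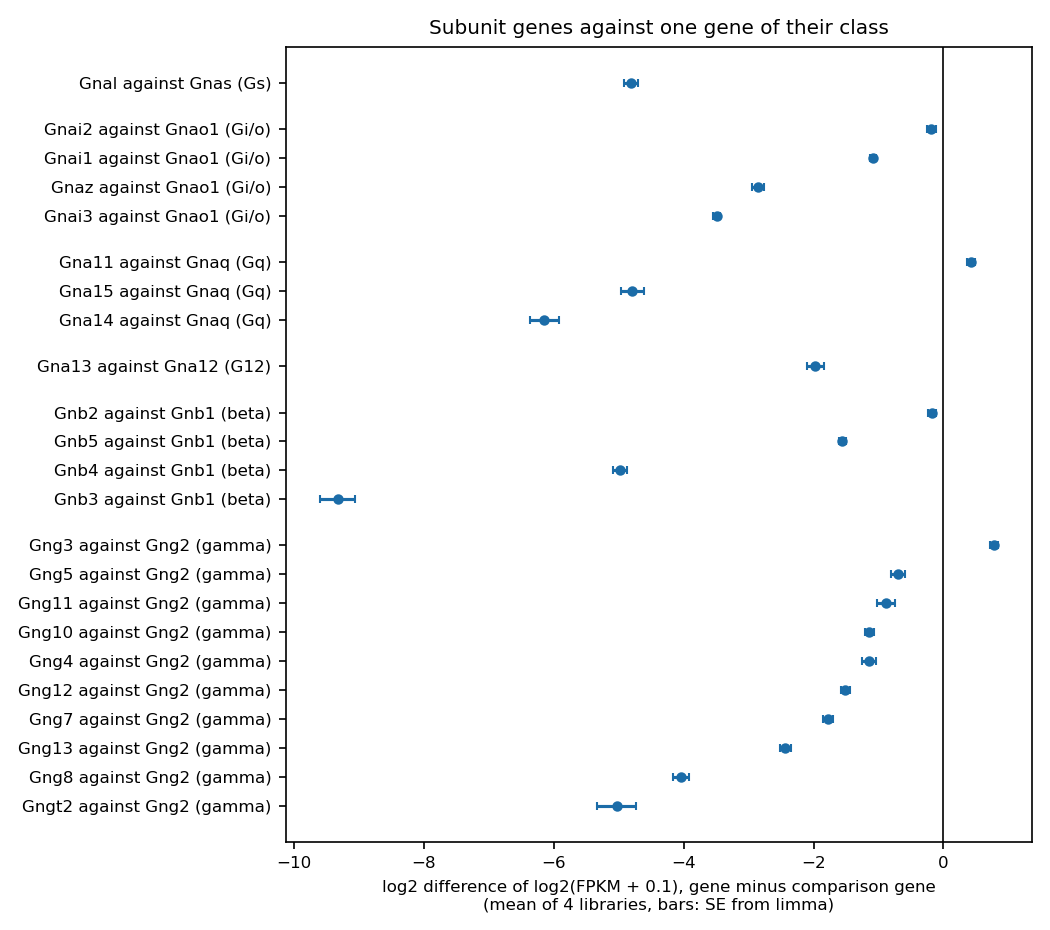
Differences in log2(FPKM + 0.1) between each subunit gene tested and the comparison gene of its class, as means of 4 libraries with limma standard errors. Gna11 and Gng3 lie to the right of 0, Gnai2 and Gnb2 just to its left, and the other genes further left, down to Gnb3 at -9.32.

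Promoters were read for GC boxes and CG dinucleotides. RefSeq windows from 250 bases before to 50 bases after the start were at hand for 25 members. GGGCGG or CCGCCC was found in a window of 15 of the 20 members at a mean of 1 FPKM or more and of 0 of the 5 below it (Gna14, Gna15, Gnat2, Gnat3 and Gngt1), against 38.2% of all 27025 genes with windows. That share was not split by level, so the difference between members above and below 1 FPKM has no background to be read against. A match is a description and not a site of binding. The median number of CG dinucleotides in the richest window was 30.5, 6 and 8 in the same order of sets. Abundance and these letters did not always go together. Gng3, with 90.7 FPKM, had 2 CG dinucleotides and no GC box. Gnb5 and Gng2, with 55.3 and 53.0 FPKM, had 5 each and no GC box. Gnao1 had 42 and Gnai3 21, also with no GC box. The windows of Gngt1, listed at 0, and of Gnb1, the steadiest member, are printed as chosen examples, with GC boxes in capitals (GRCm38.p6, both on the plus strand). Matches were counted and capitalised from the left without overlap, and in the Gnb1 window a further GGGCGG, left in lower case, overlaps the end of the leftmost by 1 base.
Gngt1 at chr6:3993758-3994057: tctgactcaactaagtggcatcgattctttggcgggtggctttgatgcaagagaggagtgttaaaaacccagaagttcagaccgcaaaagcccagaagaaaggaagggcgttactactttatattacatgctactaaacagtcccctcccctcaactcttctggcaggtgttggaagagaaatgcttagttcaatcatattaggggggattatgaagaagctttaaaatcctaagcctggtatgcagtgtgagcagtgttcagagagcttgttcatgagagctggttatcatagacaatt
Gnb1 at chr4:155491111-155491410: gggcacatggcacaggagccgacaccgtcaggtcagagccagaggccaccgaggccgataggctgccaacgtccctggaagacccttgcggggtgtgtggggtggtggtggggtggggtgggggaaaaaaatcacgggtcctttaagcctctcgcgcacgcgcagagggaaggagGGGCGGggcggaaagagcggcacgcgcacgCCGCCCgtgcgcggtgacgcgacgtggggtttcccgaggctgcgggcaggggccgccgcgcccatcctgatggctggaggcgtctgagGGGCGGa
The Gngt1 window holds 4 CG dinucleotides and 43.7% G and C, the Gnb1 window 31 and 70.3%.

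The subunit genes were next compared between libraries, where no groups exist and values are descriptions. Of 26 members at a mean of 1 FPKM or more, 15 were lowest in replicate 3, or 57.7%, against 38.2% of 13044 genes of that level. The median member lay 0.10 log2 units below the mean of the other libraries in replicate 3, where the median of all these genes lay 0.05 below. Gng4 fell furthest, with 16.6 FPKM in replicate 3 against 25.8 to 28.3 FPKM in the others. Gnb4 lay at 3.96 FPKM there against 5.24 to 5.64 FPKM, and Gnaz at 14.8 FPKM against 19.4 to 20.9 FPKM. Gnal, Gna12 and Gng11 went the other way and were highest in replicate 3. Only Gng4 in replicate 3, and Gngt2 in replicates 1 and 4, differed more than 1.5-fold from the mean of the other libraries among these 26 members. The thalamus markers that were high in replicate 3, such as Prkcd at 172 FPKM against 3.72 to 13.4 FPKM, were given above. In the same library the PSTh markers were lowest, at a summed 318 FPKM against 355 to 512 FPKM, and so were lateral hypothalamus markers, at 173 FPKM against 440 to 760 FPKM. Oligodendrocyte markers were highest there, at 7069 FPKM against 4931 to 6620 FPKM. The part of these markers in the differences was not tested.

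Steadiness between libraries was read against genes of like level. Of the 29 members tested, 9 had a smaller SD than the median of their 200 nearest genes in level. For the median member 62.5% of these neighbours were steadier, so most members varied more than genes of like level. Gnb1, Gnb5 and Gng12 were the steadiest, with 1%, 10.5% and 11% of neighbours steadier still, and Gngt2 and Gng4 the least steady, with 97.5% and 97%.

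**Figure D4:**
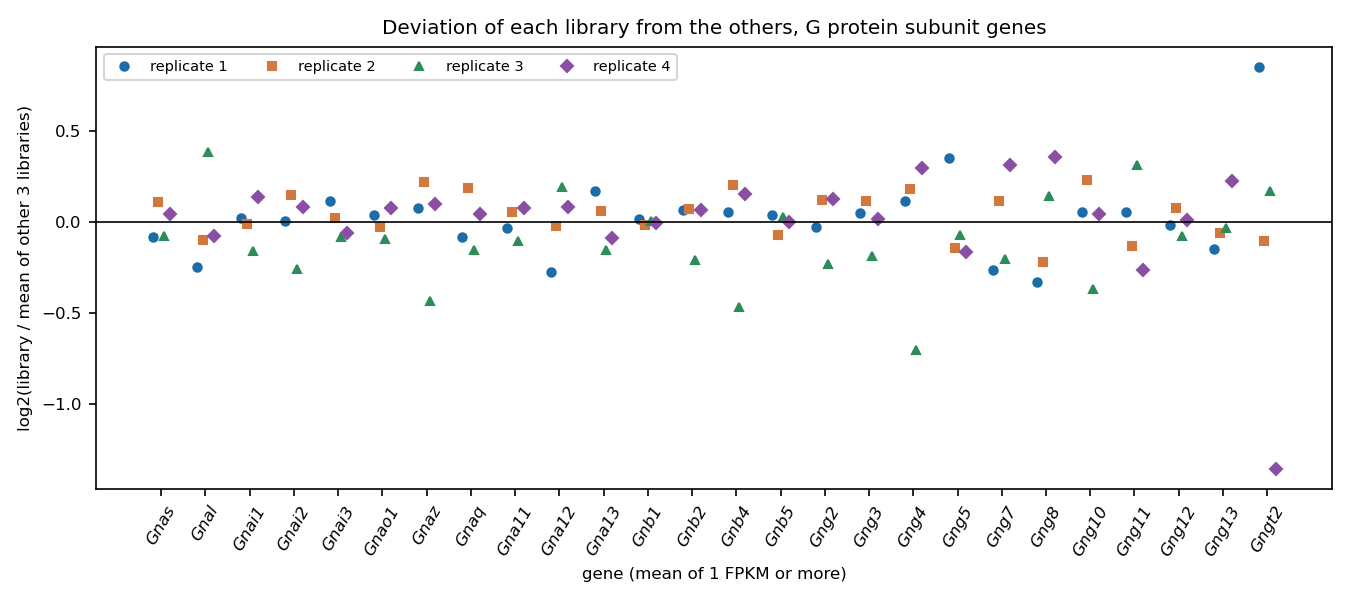
Log2 ratio of each library to the mean of the other 3 libraries for the 26 subunit genes at a mean of 1 FPKM or more. Most triangles, replicate 3, lie below 0, with Gng4 lowest at -0.70, while Gnb1 lies within 0.02 of 0 in every library.

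Genes that act on G proteins or carry their signal were taken from 8 lists. Of 65 such genes 57 were tested, and 35 were above the median gene, 18 were below and 4 did not pass, with a median log2 difference of 1.05. All genes tested had 46.7% above and 46.4% below, to which the counts for single lists that follow compare. Of 16 RGS genes tested, which speed GTP hydrolysis by alpha subunits, 11 were above and 2 below. Rgs4 lay at 67.8, 52.6, 105 and 54.0 FPKM in replicates 1 to 4 and Rgs10 at 49.0, 45.1, 45.3 and 52.6 FPKM. Rgs16 lay at 6.90, 4.55, 35.7 and 8.22 FPKM and did not pass (1.00, SE 0.54, limma adjusted p = 0.133), and Rgs14 lay at 1.34, 1.76, 1.54 and 2.90 FPKM. Rgs4 and Rgs16 were highest in replicate 3.

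Partners of Gnb5 were present beside it. Rgs7, an R7 protein that Gnb5 stabilises, lay at 28.2 to 31.9 FPKM, and Rgs6, Rgs9 and Rgs11 of the same group at means of 10.4, 6.69 and 3.52 FPKM. These genes are named after their values were seen. The R7 anchors Rgs7bp and Gpr158 lay at 15.1, 15.2, 25.6 and 16.0 FPKM and at 16.0, 17.2, 16.9 and 15.6 FPKM in replicates 1 to 4. Their retinal counterparts Rgs9bp and Gpr179 were low, at means of 0.0312 and 0.361 FPKM.

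Of 9 chaperones and modulators tested, 5 were above and 4 below the median gene, close to the shares of all genes. Ric8b, a chaperone of Gs and Golf, lay at 22.1, 23.0, 19.3 and 20.4 FPKM in replicates 1 to 4, and Gpsm1, which binds Gi alpha, at 18.4, 20.2, 18.2 and 21.2 FPKM. Of 8 receptor kinases and arrestins tested, 5 were above and 3 below, against 46.7% and 46.4% of all genes. Grk2, which also binds free beta and gamma subunits, lay at 57.7, 51.7, 53.3 and 57.1 FPKM and Arrb1, a beta-arrestin gene, at 25.7, 28.9, 28.7 and 29.3 FPKM. Pdc and Pcp2, named after their values were seen, encode phosducin of the retina and a Purkinje cell protein and were listed at 0 throughout.

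Among effectors of Gq, 2 phospholipase C beta genes were above and 2 below the median gene, where all genes had 46.7% above and 46.4% below. Plcb4 lay at 23.6, 24.2, 42.7 and 22.9 FPKM in replicates 1 to 4 and Plcb1 at 8.52, 8.92, 7.46 and 9.48 FPKM. Of the GIRK channel genes, targets of free beta and gamma subunits, 2 were above and 2 below, again near those shares. Kcnj9 lay at 14.5, 14.4, 25.2 and 18.0 FPKM, Kcnj3 at 10.8, 8.94, 15.2 and 11.4 FPKM and Kcnj6 at 1.37, 2.75, 1.73 and 2.17 FPKM. Kcnj6, a channel gene of dopamine neurons, was highest in replicate 2, where midbrain dopamine markers summed to 515 FPKM against 235 to 261 FPKM, and their part in it was not tested.

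Of 9 adenylyl cyclases, the effectors of Gs and Gi, 5 were above, 3 below and 1 did not pass, near the 46.7% above and 46.4% below of all genes. Adcy5, the cyclase typical of striatal Golf signalling, lay at 21.6, 23.0, 21.8 and 23.4 FPKM in replicates 1 to 4 and Adcy2 at 23.1, 23.9, 19.9 and 20.5 FPKM. Adcy1, a cyclase stimulated by calcium and calmodulin, lay at 5.42, 5.24, 17.8 and 7.52 FPKM and did not pass (0.68, SE 0.35, limma adjusted p = 0.118).

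Single libraries set some of these partners apart, by counts chosen after the values were seen. In replicate 3, 8 of 53 regulator and effector genes at a mean of 1 FPKM or more were over 1.5-fold above the mean of the other libraries. That is 15.1%, against 0 of 26 subunit genes and 2.32% of all 13044 genes. They were Rgs4, Rgs6, Rgs8, Rgs16, Rgs7bp, Plcb4, Kcnj9 and Adcy1, and the ratio was 5.45 for Rgs16 and 2.94 for Adcy1. In the other replicates 0 or 1 of the 53 lay that far above, where 1.09% to 2.10% of all genes did. In the other direction, more than 1.5-fold below, lay 5 of the 53 in replicate 1, or 9.43% against 2.76% of all genes. There were 3 in replicate 2, 2 in replicate 3 and 1 in replicate 4, or 5.66%, 3.77% and 1.89%. Of all genes, 1.69%, 4.31% and 2.05% lay that far below in replicates 2, 3 and 4. Of the 26 subunit genes 1 lay that far below in replicate 3 and 1 in replicate 4, or 3.85% each, beside those 4.31% and 2.05% of all genes. The part of the thalamus markers, highest in replicate 3, was not tested.

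**Figure D5:**
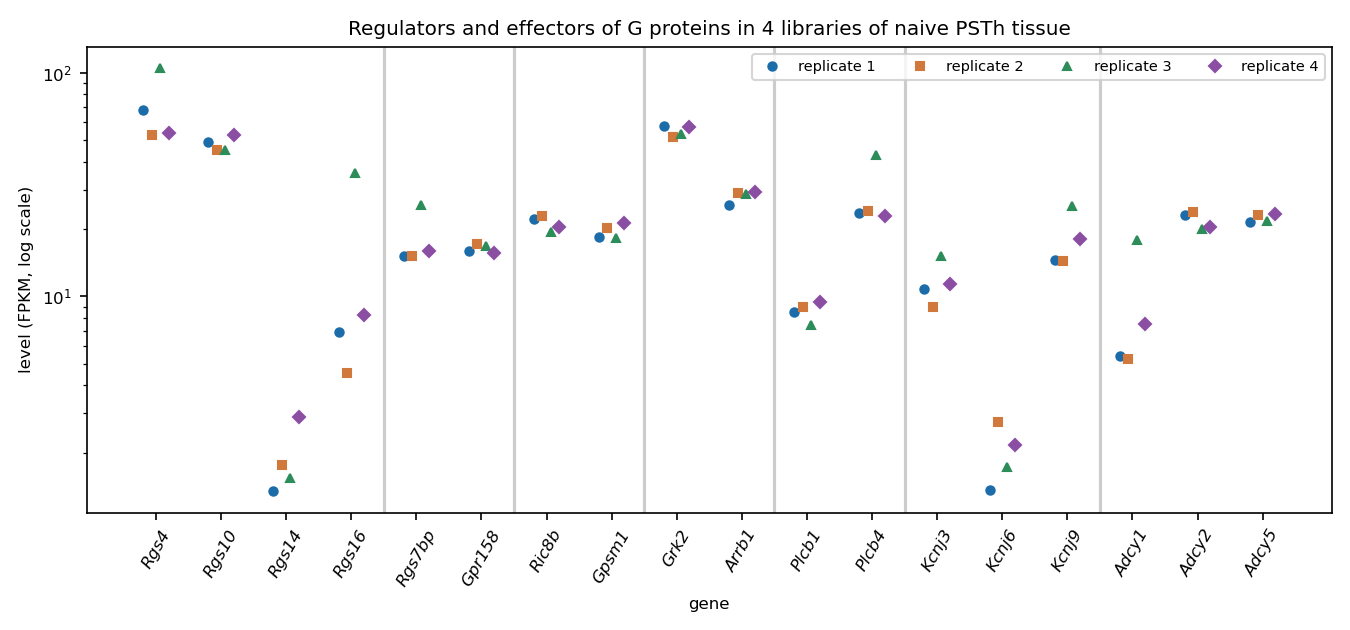
Levels of 18 regulator and effector genes on a log axis in FPKM, with vertical lines between lists; each point is 1 library. Replicate 3 stands above the other libraries for Rgs4, Rgs16, Rgs7bp, Plcb4, Kcnj9 and Adcy1, while Grk2 stays between 51.7 and 57.7 FPKM.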

How the data were processed

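Per the labels' protocols, total RNA was isolated with TRIzol and a dual-mode mRNA kit was used for library preparation. The submitters' processing notes name GRCm38. Which aligner, counter, annotation and strand setting were used is not given in the sources used here. Deposited values, 1 per gene and library, were read as FPKM from their behaviour, because no label or header names the unit. The column of replicate 3 is headed with the letter C and was assigned by the sample's title.

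Symbols came from GENCODE M21, which matched 22022 of 22036 Ensembl identifiers. Members and lists were chosen with earlier results of these data known. The filter kept genes averaging at least 0.1 FPKM, and tests used log2(FPKM + 0.1), on which differences of low genes come out too small. An intercept was fitted by limma 3.58.1 (R 4.3.3) to the difference of each gene from the median gene or from 1 gene of its class in the same library, two-sided, with Benjamini-Hochberg adjustment over all genes tested and a threshold of 0.05. In the class fits all differences share the comparison gene's deviation, so the prior degrees of freedom were limited to 1.63, as estimated from levels without a comparison gene. The fits were tested on simulated data, where limma gave p under 0.05 for 2.15% to 6.11% of unchanged genes, depending on the comparison gene. True log2 differences of 0.5 were called in 0% (against Gng2) to 39.5% of genes. Differences of 1 were called in 14% (against Gng2) to 82.5%, so small differences were often missed on those data. Whether these shares hold for the measured fits was not tested. In the measured class fits most genes were called, and the adjustment changed p little. For Gnai2 against Gnao1 the limma p was 0.0377 and the adjusted p 0.038. Values in each library are given for the comparison genes, the 3 highest of each class, the 2 highest of each list, and genes at a mean of 0.5 FPKM or more with libraries over 2-fold apart. Near copies were sought with BLAST at 95% identity over 200 bases. Alternatives were the added value, the filter, the centre, the prior, length correction and each library left out. The values of 1 of the 8 lists are not reported here by gene, though its genes are in the totals.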

Additional observations from a re-analysis of the deposited data

Results flagged for a closer look

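By Dixon's test on 31 members with values above 0, 2 had a single library far from the other 3, where chance gives about 1 in 20. Gnb2 was at 128 FPKM in replicate 3 and at 148 to 149 FPKM in the other libraries. Gng5 was at 39.0 FPKM in replicate 1 and at 30.0 to 31.5 FPKM in the other libraries.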

How the results depend on the processing

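Of 169 alternative values for the main results, 164 kept their direction and their side of the threshold, or for counts lay within 1.5 times. Counts scored this way can hide a lost call, such as that of Gnb2 with any library left out. Among the other alternative values, all for single genes, 476 stayed the same, 9 no longer passed, 3 newly passed and 6 changed sign. With a filter at a mean of 1 FPKM, Gna14, Gna15 and Gnb3 left the test and Gnb4 fell below the median gene. The members below it then numbered 3 in place of 5, and 0 Gq genes were lower than Gnaq in place of 2. With no filter 7 Gi/o genes were lower than Gnao1 in place of 4, because the transducin genes then entered. Without length correction 0 Gq genes were higher than Gnaq and 0 gamma genes higher than Gng2, in place of 1 each, as Gna11 turned to -0.29, Gng3 to -0.44 and, against the median gene, Gng13 to -1.70. Against the median gene Gnb4 turned to -0.84 with the filter at 1 FPKM, and with no filter Gng8 turned to 1.25 and Gngt2 to 0.25 (adjusted p = 0.411), since that filter sets the median gene itself.

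Leaving out 1 library at a time gave 23 members above and 5 below throughout, -4.93 to -4.76 for Gnal against Gnas, -2.08 to -1.89 for Gna13 against Gna12, -5.43 to -5.40 for Gnaq against Gnas and 2.81 to 2.87 for Gnas against Gnao1. It gave 3 to 4 Gi/o genes lower than Gnao1 and 3 beta genes lower than Gnb1. The Gnas share of summed alpha levels, 65.7%, was 65.4% to 65.9% with a library left out and 65.4% without length correction, alternatives chosen after seeing the data. Members lowest in replicate 3 numbered 14 to 16. No paired analysis was possible because there is 1 group. Depth per gene is unknown, so small differences between genes near 0 cannot be judged.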
